A study of Saccharomyces cerevisiae with 24 samples.

Results

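GLN3, GAT1, DAL80, GZF3 and URE2 are the 5 genes of Saccharomyces cerevisiae that encode the GATA factors of nitrogen catabolite repression and their cytoplasmic partner. They were found on spotted arrays of yeast open reading frames (ORFs) by the name printed beside each spot or by the current name of its ORF, and each had 1 spot among 6307 ORF spots. The 24 arrays form 12 comparisons, each made of a pair of arrays with the Cy3 and Cy5 dyes exchanged. All strains were BY4741 (Mata ura3D0 leu2D0 his3D1 met15D0) or its isogenic kanR deletion derivatives, grown in YPD, a rich medium. Cells grew at 30°C, or at 29°C before the heat shift, to an A600 of about 0.2 before treatment. Cultures grown for 48 h started at an OD600 of 0.01. One comparison set the untreated med20 strain against the untreated wild type. A pair of comparisons set cells given 0.2 µg/ml rapamycin for 1 h against cells without it, one in the wild type and one in the med20 strain. The other 9 comparisons set a deletion strain against the wild type under one condition. The med20 strain was compared after 0.2 µg/ml rapamycin for 1 h, after chlorpromazine (CPZ) for 1 h, after 2.5 µg/ml tunicamycin for 90 min, after 0.32 mM H2O2 for 30 min, after a shift from 29°C to 39°C for 20 min, and after growth for 48 h in all, which takes the cells past the diauxic shift. The CPZ dose is 250 mM in the labels and 250 µM in the study's methods. The med16, med31 and cycC strains were each compared after 0.2 µg/ml rapamycin for 1 h. MED20, MED16 and MED31 encode subunits of the Mediator, the complex that links transcription factors to RNA polymerase II, and cycC lacks cyclin C (SSN8), the cyclin of its kinase module.

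In nitrogen catabolite repression, cells that have a preferred nitrogen source keep the genes for using poorer sources silent. Gln3 and Gat1 are zinc-finger activators that bind GATA sequences upstream of these genes, and Dal80 and Gzf3 (also called Deh1) are zinc-finger repressors that bind similar sequences. Ure2, a protein related to glutathione S-transferases and the source of the [URE3] prion, holds Gln3 and Gat1 in the cytoplasm when nitrogen is good. The TOR kinase, which rapamycin inhibits, acts on this step through phosphatases. GAT1 and DAL80 are themselves transcribed under GATA control, so the family regulates some of its own members. Much of the control of Gln3 lies in where the protein is, which mRNA measurements do not show.

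In the current reference (assembly R64) GLN3 (YER040W) lies on chromosome V from 229795 to 231987, GAT1 (YFL021W) on VI from 95966 to 97498 and DAL80 (YKR034W) on XI from 506898 to 507707. GZF3 (YJL110C) lies on X from 209922 to 211577 and URE2 (YNL229C) on XIV from 219137 to 220201. The spots carry ORF names only, so the part of each gene that was probed is not given in the sources used here.

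Of the 120 values that 5 spots on 24 arrays could give, 66 came from spots without a quality flag, and 54 were left out. GAT1 and DAL80 were unflagged on all 24 arrays. GLN3 was flagged on 19 arrays, GZF3 on 20 and URE2 on 15. GLN3 and GZF3 are printed in the same grid of 432 spots, which was flagged whole on the 18 arrays of the first 9 comparisons, while 44 to 106 of its spots were flagged on the 6 arrays of the med16, med31 and cycC comparisons. Thus 31 of the 60 possible ratios rested on both arrays, 4 on a single array and 25 on none, and rapamycin against no rapamycin gave no ratio for GLN3 or GZF3.

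A value below is the log2 ratio of the first-named sample to the second, with local background removed by normexp (a model that leaves no negative signal) and the dyes balanced by loess within each array. An offset of 50 was added to each channel, which draws the ratios of dim spots toward 0. A gene was called changed when the mean of its pair was 2-fold or more. Per the study's methods, the wild-type and med20 mRNAs with and without rapamycin were hybridised in both dye orientations, and nothing says that the arrays of other pairs came from separate cultures. A pair was therefore taken as 1 replicate, its spread as technical, and no test was made between groups. Between 5653 and 5929 genes were measured on both arrays of a comparison, the r of both arrays across genes ran from 0.231 to 0.917, and the median net intensity of an array channel from 84.5 to 1088 scanner units. A channel counted as above background when its net intensity passed the 95th percentile of 29 unnamed spots on that array, which 64.9% to 98% of ORF spots did. MED20 was below 0 on all 14 arrays of med20 against wild type, with means from -0.89 to -0.26. Its spot nonetheless stayed above background in the med20 channel on all 14, at 0.541 to 0.838 of the wild-type signal with the offset included. MED31 was at -1.05 in the med31 strain, also with the deletion side above background on both arrays. SSN8 was at least 1.27-fold lower in cycC, where the deletion side was not above background on either array. MED16 was lower on both arrays in the med16 strain, where the deletion side was above background on 1 array. With local background subtracted and no offset, SSN8 in cycC was at -3.28 and -5.64 in place of -0.95 and -0.81. MED16 in med16 was then at -2.97 and -2.37 in place of -0.68 and -0.66.

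Across the whole family the 2-fold calls were 4 in number, and all 4 were rises with rapamycin, of GAT1 and DAL80 in the wild type and in the med20 strain. The untreated side of DAL80 was not above background, so its calls rest on the normexp values, and its bound in the wild type is at least 1.79-fold. By the same rule 3.94% of all genes were higher with rapamycin in the wild type (10.1% changed in either direction) and 3.19% were higher in the med20 strain (8.76% in either direction). In the 7 comparisons of med20 with the wild type, only GAT1 and DAL80 had a ratio from both arrays. DAL80 was read at or near background there in untreated, CPZ, H2O2 and heat-treated cells. No member with a ratio from both arrays passed 2-fold in any of the 10 comparisons of a deletion strain with the wild type. For med20 the share of all genes that did so in either direction was 0.928% untreated, 3.92% with rapamycin, 3.3% with CPZ, 2.6% with tunicamycin, 4.36% with H2O2, 2.84% with heat and 2.87% after the diauxic shift. With rapamycin it was 0.236% in med16, 0.843% in med31 and 0.641% in cycC, so that few genes at all were called in these strains. DAL80 was the member furthest below the wild type in the deletion strains, by 1.67-fold in med20 after the diauxic shift and 1.66-fold in cycC with rapamycin.

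GAT1, the GATA activator whose own gene is under nitrogen control, rose with rapamycin in the wild type. Its ratio was 1.42 on replicate 1 and 0.87 on replicate 2, a mean of 1.14 (2.21-fold), which ranked it 169 of 5738 genes from the highest. In the med20 strain its ratio was 1.53 and 1.42, a mean of 1.48 (2.78-fold), at rank 66 of 5741. In bulk cells, a change in how many cells hold an mRNA and a change in its amount per cell cannot be told apart. All 4 arrays were above 0, but the wild-type rise passed 2-fold on replicate 1 and not on replicate 2.

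The GAT1 spot was above background in all 48 channels, with net intensities from 131 to 1813 and a median of 695. In the wild type the rapamycin and untreated channels read 739 and 176 on replicate 1 and 392.5 and 337 on replicate 2. In the med20 strain they read 1233.5 and 187 on replicate 1, and 622.5 and 245 on replicate 2. The rapamycin channel was the brighter one on all 4 arrays, and by the least on the second wild-type array, before the dyes were balanced.

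**Figure D1:**
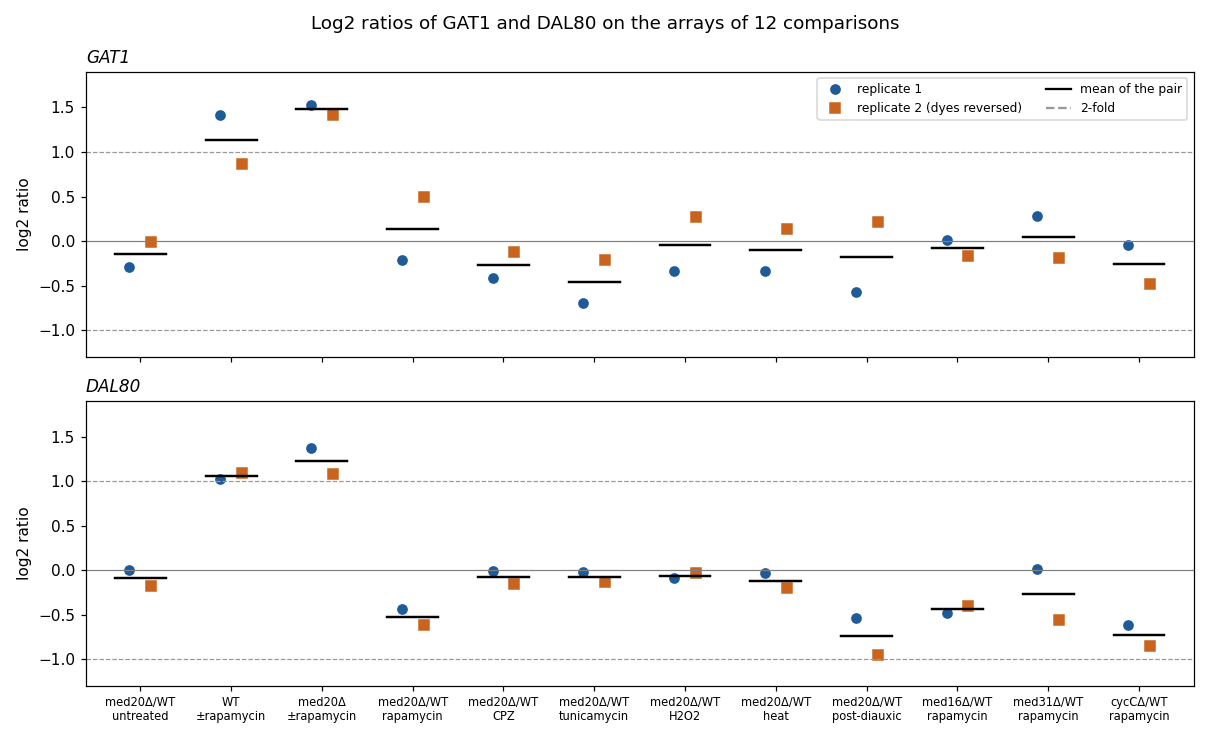
Log2 ratio of GAT1 (top) and DAL80 (bottom) on each array of the 12 comparisons, with circles for replicate 1, squares for replicate 2 with the dyes reversed, a bar for the mean of the pair and dashed lines at 2-fold. Both genes pass 2-fold on the mean with rapamycin in the wild type and the med20 strain, and DAL80 lies at -0.52 to -0.73 in the med20 and cycC strains with rapamycin.

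Between the strains GAT1 differed little. The untreated med20 strain gave -0.29 and -0.01 on replicates 1 and 2, a mean of -0.15, and the same strains with rapamycin gave -0.21 and 0.49, a mean of 0.14. These arrays fell on both sides of 0 in the rapamycin pair, so the sign of its mean is smaller than the spread of the pair. The lowest mean of GAT1 was in tunicamycin, an inhibitor of N-glycosylation, at -0.70 and -0.21, a mean of -0.46 (1.37-fold lower, rank 284 of 5653 from the lowest). CPZ, a phenothiazine that acts on membranes, gave -0.42 and -0.12, a mean of -0.27. Both arrays were below 0 in these 2 conditions and in the untreated pair.

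In the other stresses the GAT1 arrays of a pair lay on opposite sides of 0. H2O2 gave -0.34 and 0.27, a mean of -0.04. Heat gave -0.34 and 0.13, a mean of -0.10. The post-diauxic cells gave -0.57 and 0.21, a mean of -0.18, the widest pair of GAT1 with an SD of 0.55. Thus 10 of the 14 arrays of med20 against wild type were below 0, with no mean past -0.46.

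With rapamycin the med16 strain gave GAT1 ratios of 0.01 and -0.17, a mean of -0.08. The med31 strain gave 0.28 and -0.19, a mean of 0.05, and the cycC strain gave -0.04 and -0.48, a mean of -0.26 (1.20-fold lower). Only in cycC were both arrays on one side of 0. Ordered by their means, the 10 strain comparisons of GAT1 ran from tunicamycin (-0.46) over CPZ, cycC, the post-diauxic cells, untreated, heat, med16, H2O2 and med31 to med20 with rapamycin (0.14), and neighbours in that order differed by less than the larger SD of their pairs.

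GAT1 followed the dye. With the first-named sample in Cy5, its ratio was higher than with that sample in Cy3 in 9 of 9 comparisons outside med16, med31 and cycC, by 0.10 to 0.78 with a median of 0.49. In med16, med31 and cycC the difference ran the other way in 3 of 3, from -0.47 to -0.18. The exchange of dyes cancels such a shift in the mean of a pair, while a single array keeps it, and its part in the spread of GAT1 was not tested further.

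DAL80, the repressor that is itself induced when nitrogen is poor, also rose with rapamycin in both strains. Its ratio in the wild type was 1.03 and 1.09, a mean of 1.06. In the med20 strain it was 1.37 and 1.08, a mean of 1.23. The untreated side was not above background on any of these 4 arrays, while the rapamycin side was above it on all 4, so these values depend on how background was removed and were given no rank. Set against the lowest signal that counted as above background, DAL80 was at least 1.79-fold higher with rapamycin in the wild type and at least 2.19-fold higher in the med20 strain (means of both arrays after the channels were scaled alike).

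The net intensities of the DAL80 spot show the range behind these bounds. In the wild type the rapamycin channel read 103 against 14 without the drug on replicate 1, and 61 against 2.5 on replicate 2. In the med20 strain the readings were 196 against 16.5, and 97 against 3. The untreated readings lie between 2.5 and 16.5 units, where a few units move a ratio widely: with plain subtraction of local background in place of normexp the mean ratios were 3.55 in the wild type and 3.47 in the med20 strain.

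**Figure D2:**
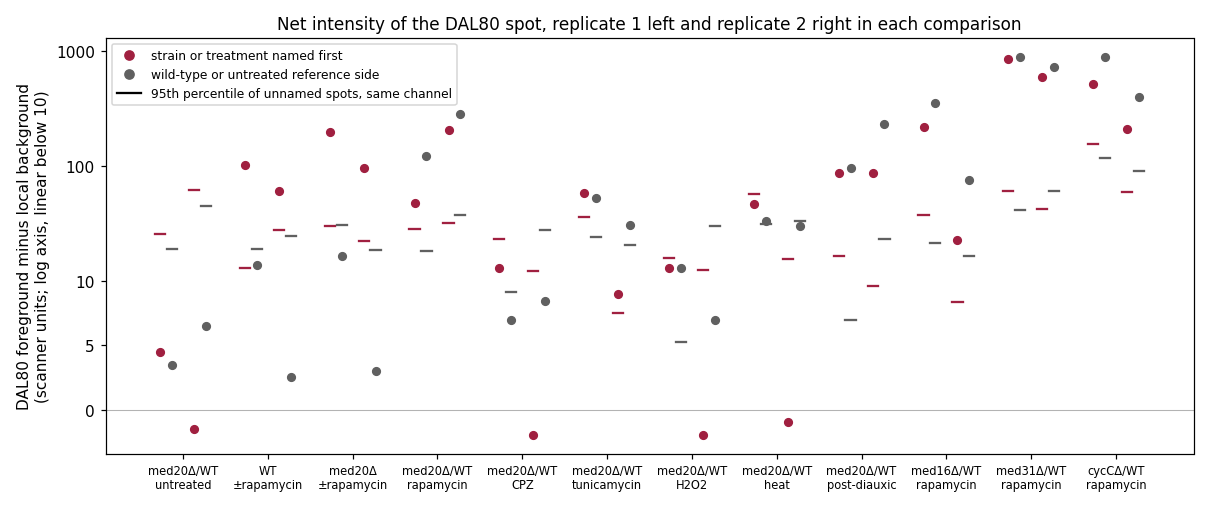
Net intensity of the DAL80 spot (foreground minus local background, scanner units, log axis that is linear below 10) in each channel of each array, red for the strain or treatment named first and grey for the other side, with a short line at the background limit of that channel. Every channel of rapamycin-treated cells lies above its line, and the channels of untreated and CPZ-treated cells lie below theirs.

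DAL80 was above background in 30 of its 48 channels, and which ones followed the growth condition. Untreated and CPZ-treated cells of both strains gave no channel above background, with net intensities from -2 to 16.5. H2O2 and heat each gave a single wild-type channel above it. With tunicamycin all 4 channels passed, at 9 to 58 units, and after the diauxic shift all 4 passed, at 86.5 to 233.5 units. Every rapamycin channel passed, from 23 to 886 units.

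Where DAL80 was measured on both sides, it lay below the wild type in most deletion strains. The med20 strain with rapamycin gave -0.43 and -0.62, a mean of -0.52 (1.44-fold lower, rank 432 of 5747 from the lowest), from net intensities of 47.5 against 122.5 and 207 against 280. After the diauxic shift it gave -0.54 and -0.95, a mean of -0.74 (1.67-fold lower, rank 243 of 5716). Both pairs had both arrays below 0 and neither mean reached 2-fold.

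Among the other Mediator strains with rapamycin, cycC stood lowest, at -0.61 and -0.85, a mean of -0.73 (1.66-fold lower, rank 52 of 5773 from the lowest). The med16 strain gave -0.48 and -0.40, a mean of -0.44 (1.35-fold lower, rank 140 of 5926). The med31 strain gave 0.01 and -0.56, a mean of -0.27, with its arrays on both sides of 0. Over the 4 deletion strains with rapamycin 7 of 8 arrays were below 0, and over all 10 strain comparisons 18 of 20 were. Of the latter comparisons, those of untreated, CPZ, H2O2 and heat-treated cells were read at or near background.

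In the remaining conditions the DAL80 ratios were close to 0 and partly rested on dim channels. Untreated cells gave 0.00 and -0.18, a mean of -0.09, and CPZ gave -0.01 and -0.15, a mean of -0.08, with neither side above background. Tunicamycin gave -0.02 and -0.13, a mean of -0.07, with both sides above background on both arrays. With local background subtracted the tunicamycin arrays gave -0.14 and -0.75, a mean of -0.44, so this value too depended on the background. H2O2 gave a mean of -0.06 and heat a mean of -0.12, both with the med20 side not above background on either array. No order can be read among these 5.

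The size of the DAL80 differences depended on the background. With local background subtracted the means were -0.76 for med20 with rapamycin, -1.20 after the diauxic shift, -1.05 in med16, -0.32 in med31 and -0.96 in cycC. The sign was the same in all 5, and the post-diauxic and med16 values then passed 2-fold. Ordered by the main means, the lowest were the post-diauxic cells and cycC, which differed by less than the spread of their pairs, followed by med20 with rapamycin, med16 and med31.

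The rapamycin arrays form a closed loop, so that the effect of MED20 on the rapamycin response can be had in a pair of ways. For GAT1 the response in med20 minus that in the wild type was 0.33, and the strain difference with rapamycin minus that without was 0.29. The values differed by 0.04, against an SD of 0.41 for the same gap over 5647 genes. Both values are smaller than that SD, and on single arrays the first way gave 0.11 to 0.56. A larger response of GAT1 in med20 was therefore not settled. For DAL80 the first way gave 0.17 and the second -0.44, a gap of 0.60. The first way for DAL80 uses untreated channels not above background on both its terms, whereas the second includes an untreated pair that was dim on both sides, so neither gives the difference in response for this gene, and its sign was not settled.

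GLN3, the activator held back by Ure2, was measured in the rapamycin comparisons of med16, med31 and cycC only. The med16 strain gave -0.16 on its single unflagged array, the med31 strain gave -0.41 and -0.08, a mean of -0.25, and the cycC strain gave 0.01 and -0.37, a mean of -0.18. The ratio was below 0 on 4 of 5 arrays and never past -0.41. All 10 of these channels were above background, at 163.5 to 477 net units.

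GZF3, the other GATA repressor, was measured in the same 3 comparisons. It gave 0.46 on the single array of med16, -0.30 on the single array of med31, and 0.11 and 0.00, a mean of 0.05, in cycC. Its channels read 303.5 to 1067 net units. The single arrays lie on opposite sides of 0 and have no partner with the dyes exchanged, so a dye effect cannot be told apart from a difference between strains there.

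URE2 was measured in 5 comparisons. Rapamycin in the wild type gave -0.31 and -0.15, a mean of -0.23 (1.17-fold lower, rank 1545 of 5738 from the lowest), and the single unflagged array of med20 against wild type with rapamycin gave -0.10. The med16 strain gave -0.15 and 0.19, a mean of 0.02, the med31 strain gave -0.44 and 0.16, a mean of -0.14, and the cycC strain gave -0.30 and 0.21, a mean of -0.04. In these 3 strains the arrays of every pair fell on opposite sides of 0, and the array with the deletion strain in Cy5 was the higher in 3 of 3, by 0.33 to 0.61.

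**Figure D3:**
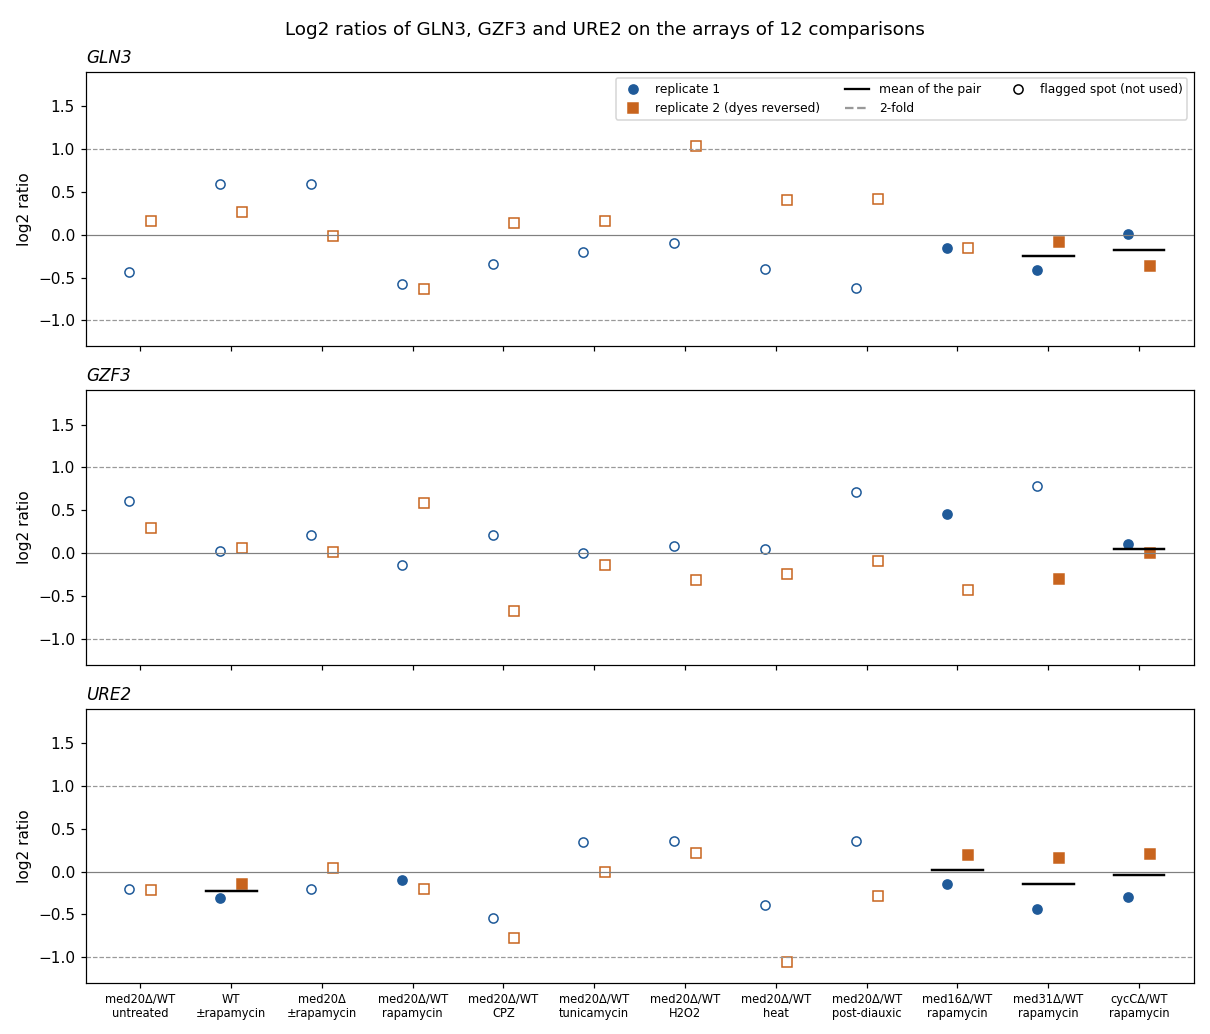
Log2 ratio of GLN3, GZF3 and URE2 on each array of the 12 comparisons, with filled marks for spots without a flag, open marks for flagged spots that were not used, a bar for the mean of a pair and dashed lines at 2-fold. Filled marks of GLN3 and GZF3 stand in the last 3 comparisons only, and no filled mark passes 2-fold.

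The values of flagged spots are given as a description only. Kept in the same normalization, the 19 flagged GLN3 ratios ran from -0.63 to 1.04, the 20 of GZF3 from -0.67 to 0.78 and the 15 of URE2 from -1.05 to 0.36. Flagged GLN3 spots read from 4 to 3124 net units, against 163.5 to 477 for the unflagged ones. On the arrays of untreated med20 against wild type, the GLN3 spot read 36 and 76.5 units on replicate 1 but 3008.5 and 2180.5 on replicate 2. What the flags marked is not given in the sources used here.

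Many but not all of the genes known to answer to nitrogen catabolite repression rose with GAT1 and DAL80 in the rapamycin arrays. Of 26 such genes, listed with earlier results of these data known, 25 had unflagged spots on both arrays. Of these, 14 rose 2-fold or more in the wild type and 16 in the med20 strain, and 0 fell in either. In the wild type 20 were higher and 5 lower on both arrays, and in the med20 strain 20 and 2. DAL5 stayed near 0 in the wild type and the med20 strain (-0.04 and 0.17), although above background in 36 of 36 channels of the first 9 comparisons. AVT4, above it in 32 of 36, was at -0.61 and -0.66. Over all genes 3.94% rose and 6.2% fell in the wild type, and 3.19% rose and 5.57% fell in the med20 strain. The median ratio of the listed genes was 1.12 in the wild type and 1.68 in the med20 strain, against 0.00 over all genes in both. These counts include UGA4, a GABA permease gene above background in 0 of 36 channels of the first 9 comparisons, and DCG1 and GDH2, above it in 17 and 18 of 36, whose ratios are read in part or in whole at background. In the med20 strain the largest ratios were those of MEP2, a high-affinity ammonium permease (5.19), GAP1, the general amino acid permease (4.36), and AGP1, a broad amino acid permease (2.91). In the wild type the same quantity was 4.14 for MEP2, 3.66 for GAP1 and 3.53 for CPS1, a vacuolar carboxypeptidase. The rises of GAT1 (1.14 and 1.48) were near the median of these genes in both strains.

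**Figure D4:**
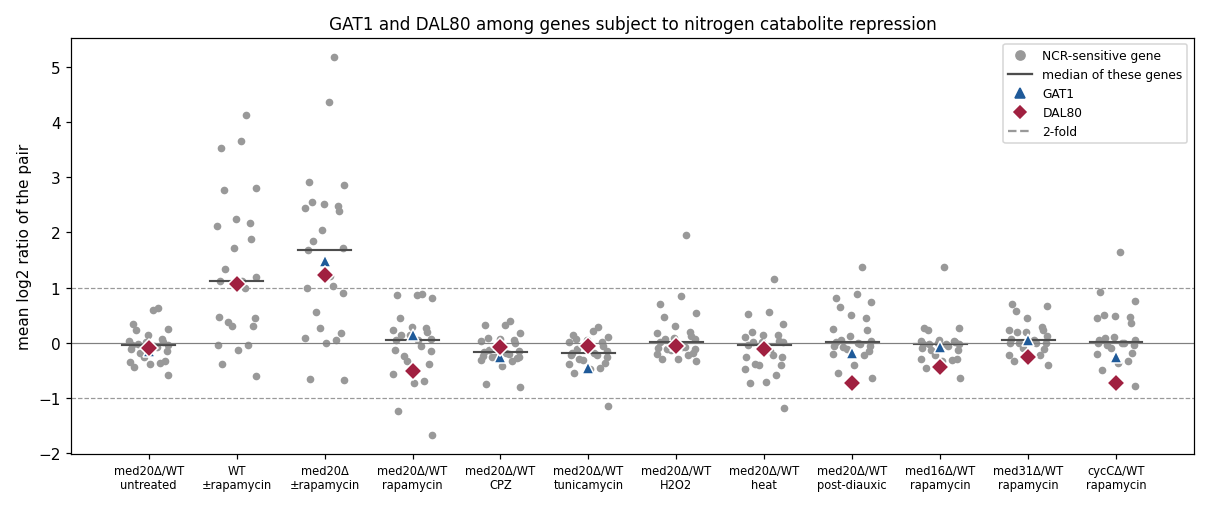
Mean log2 ratio of the pair for each gene with unflagged spots of the nitrogen catabolite repression list (grey points, with a line at their median), GAT1 (blue triangles) and DAL80 (red diamonds) in the 12 comparisons, with dashed lines at 2-fold. The medians are 1.12 and 1.68 with rapamycin against no rapamycin and between -0.18 and 0.05 in the 10 comparisons of strains.

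Between strains the same genes were called in 9 of 246 ratios over the 10 comparisons, 5 higher and 4 lower, with at most 2 calls in one comparison and medians from -0.18 to 0.05. The share of all genes called in these comparisons ran from 0.236% to 4.36%. The calls below are named singly, and a link to DAL80 was not tested. With rapamycin, where DAL80 was at -0.52 in the med20 strain, 2 of 25 genes were lower by 2-fold, against 1.81% of all genes. They were CPS1 (-1.68) and the vacuolar aminopeptidase gene LAP4 (-1.24). After the diauxic shift, where DAL80 was at -0.74, MEP2 was higher (1.37) and 0 of 25 were lower, while 0.892% of all genes were higher and 1.98% lower. OPT2, an oligopeptide transporter gene, was higher both in cycC (1.65), where DAL80 was at -0.73, and in med16 (1.38), where DAL80 was at -0.44. The remaining calls were in the med20 strain. PUT1 was lower with tunicamycin (-1.15), where DAL80 was at -0.07. With heat GAP1 was higher (1.16) and UGA1 lower (-1.18), where DAL80 was at -0.12. LAP4 was higher with H2O2 (1.96), where DAL80 was at -0.06. With heat and H2O2 DAL80 was read at or near background. On the 6 arrays of med16, med31 and cycC, 4 listed genes gave no channel above background, GLN1 (glutamine synthetase) among them, although GLN1 was above it in 32 of 36 channels of the other arrays, so a ratio near 0 for these genes there measures nothing.

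None of the 3 measured activators of single nitrogen pathways (PUT3, UGA3 and DAL81) passed 2-fold with rapamycin in either strain. Of 14 measured genes of the TOR pathway and its phosphatases, 2 rose in the wild type and 1 in the med20 strain, where 3.94% and 3.19% of all genes rose. PPH21, a catalytic subunit of protein phosphatase 2A, was the gene shared by both, at 1.39 and 1.59. On the arrays of med16, med31 and cycC, all from rapamycin-treated cells, PPH21 was above background in 0 of 10 unflagged channels. On the remaining arrays, where its rises were read, it was above background in 36 of 36. The cause of this difference was not tested. The other gene in the wild type was KOG1, a partner of the TOR kinase in its rapamycin-sensitive complex, at 1.15. The KOG1 arrays were uneven, at 0.68 and 1.62. Of the 6 other genes with GATA-type zinc fingers, ECM23 was lower with rapamycin in both strains, at -1.85 and -1.93, and the others stayed under 2-fold. Over all genes 6.2% were lower in the wild type and 5.57% in the med20 strain.

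Patterns over the 12 comparisons were most alike between GAT1 and transporter genes of the nitrogen list. Among 4986 genes with all 12 ratios, the highest Pearson r with GAT1 was that of AGP1 (0.979), then MEP2 (0.96) and GAP1 (0.959). For DAL80 it was that of GTT1, a glutathione transferase gene (0.96), AVT7, a vacuolar amino acid transporter gene (0.953), and ATG33, a gene of mitophagy (0.951). GAT1 and DAL80 correlated with each other at 0.864, at which GAT1 had rank 66 for DAL80 and DAL80 rank 72 for GAT1. These values describe 12 points, of which the pair of rapamycin responses lies far from the rest. For DAL80 that pair has an untreated side not above background, and the untreated, CPZ, H2O2 and heat ratios were read at or near background, so its r values and ranks rest largely on dim channels, with or without the rapamycin responses. Over the other 10 comparisons r with GAT1 was 0.75 for AGP1, 0.413 for MEP2 and 0.505 for GAP1, r with DAL80 was 0.736 for GTT1, 0.676 for AVT7 and 0.702 for ATG33, and that between GAT1 and DAL80 was -0.163.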

How the data were processed

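Per the labels, poly(A)+ RNA was labelled with Cy3 and Cy5. The deposited array tables hold foreground and background intensity per channel, a flag and the authors' normalized log10 ratio of Cy5 over Cy3, whose method, like the image software, is not given in the sources used here. The deposited unnormalized log10 ratio was checked to equal that of net Cy5 over net Cy3 intensity. The series value table, which repeats that ratio, was not used. Spots with a flag other than 1 and control spots were left out (6912 spots per array, 576 of them controls). Of 6307 ORF spots, 5801 matched a locus tag of assembly R64. Intensities were corrected with normexp (offset 50) and loess in limma 3.58.1 (R 4.3.3), turned to the first-named sample by dye and averaged over the pair. Other steps used Python 3.11.15. The normalization was tested on simulated data. The call was 2-fold on the mean. Replicate numbers mark the dye orientation within a comparison and pair no samples across comparisons.

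Named were the 5 members, the 4 deleted genes, the 3 nitrogen-list genes largest in size in a comparison, and the 3 genes most like each member over 12 comparisons. Genes of other lists, and the other named genes of the nitrogen list, were named after their values were seen. The members and lists were chosen with earlier results of these data known. Alternatives changed the background correction, normalization, flag filter, threshold, filter on dim spots, arrays and test (limma over 24 arrays, Benjamini-Hochberg adjusted). The number of arrays limits the precision.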

Additional observations from a re-analysis of the deposited data

Results flagged for a closer look

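No member of the family had both arrays above the wild type in one condition or strain and both below it in another. The genes outside the family whose strain ratios are given, chosen after their values were seen, were read in the same way, and the differences below were not tested. KOG1, whose product binds the TOR kinase in the complex that rapamycin inhibits, was lower in med20 on both arrays in 6 conditions, lowest untreated (-1.67), and higher on both arrays with H2O2 (1.08), a difference of 2.75 on the log2 scale. Its ratio in med20 with rapamycin was uneven, at -0.07 and -1.78. The rapamycin response of KOG1 was smaller in med20 (0.01) than in the wild type (1.15). Yet its ratio of med20 to wild type was -1.67 untreated and -0.93 with rapamycin, a difference of the opposite sign. The closed loop of the rapamycin arrays thus does not hold for KOG1, and its strain ratios are not settled. LAP4 was at 1.96 in med20 with H2O2 against -1.24 with rapamycin, a difference of 3.20. GAT1 and DAL80 were at -0.04 and -0.06 with H2O2, where the med20 side of DAL80 was not above background on either array.

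Among the deletion strains with rapamycin, CPS1 was at 0.91 in cycC against -1.68 in med20, a difference of 2.59. OPT2 was at 1.65 in cycC and 1.38 in med16, with both arrays higher in each, against -0.39 in med20, a difference of 2.04 between cycC and med20. In med20 OPT2 was at 0.32 with CPZ, which is 0.71 above its rapamycin value. KOG1 was at 0.09 in med31 against -0.93 in med20, a difference of 1.02. DAL80 was below the wild type in both cycC (-0.73) and med20 (-0.52). The med16, med31 and cycC arrays differed from the med20 arrays in their flagged grid, in the direction of the GAT1 dye difference and in which spots gave signal. A difference between med20 and these strains therefore cannot be told apart from one between sets of arrays.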

How the results depend on the processing

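The direction of the 4 calls of GAT1 and DAL80 held under the 10 alternatives run for each. Without one array of the pair GAT1 ran from 0.87 to 1.42 in the wild type with rapamycin, so that without replicate 1 it was under 2-fold, and from 1.42 to 1.53 in med20. DAL80 ran from 1.03 to 1.09 and from 1.08 to 1.37. GAT1 in med20 was 1.71 with local background subtracted and 1.72 in the authors' normalized ratios. DAL80 in the wild type was 1.35 with no background correction, 3.55 with subtraction, 1.21 with median centring and 3.49 in the authors' ratios, and in med20 it was 3.47 with subtraction and 3.67 in the authors' ratios. The response of DAL80 in med20 minus that in the wild type was 0.17, but -0.09 with subtraction and -0.44 from the direct arrays, an alternative chosen after seeing the data, and 0.00 to 0.34 on single arrays. The 4 member calls became 2 with the dimmest 25% of ORF spots left out, which removes DAL80. They became 7 with limma, which takes both arrays of a pair as separate samples and so measures technical spread, and 7 with the replicate block. The 3 ratios added were those of DAL80 in med20 with rapamycin (adjusted p = 0.0159, with the replicate block 0.00447), in med20 after the diauxic shift (0.00142 and 0.000365) and in cycC (0.00661 and 0.00181), where without the block limma called 10.6%, 14.3% and 2.17% of all genes. The 9 calls of nitrogen-list genes between strains became 27 with subtraction, 25 in the authors' ratios, 36 at 1.5-fold, 37 with limma and 38 with the replicate block. The cause of these shifts was not tested.

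Of the 262 alternative values of the 27 member ratios under 2-fold, 251 stayed within the SD of their pair, 11 moved beyond it and 248 kept their direction. Counts over all genes moved further. With rapamycin against none, 582 genes passed in the wild type, 437 with 2-fold on both arrays and 1753 with limma and the replicate block, and 503 passed in med20, against 367 and 1611. In the 10 strain comparisons 14 to 250 genes passed, against 7 to 158 with 2-fold on both arrays and up to 1155 with limma and the replicate block. Signal over background limits DAL80 in untreated, CPZ, H2O2 and heat-treated cells.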
